A study of Rattus norvegicus with 4 samples.

Results

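Macrophage transcripts were followed in cultured rat ovaries through 10 genes: Cd68, Cd14, Cd163, the 3 complement C1q chain genes C1qa, C1qb and C1qc, the receptor genes Csf1r and Ptprc, and the adaptor genes Tyrobp and Fcer1g. Every probe set listed under 1 of these symbols alone was taken, which gave 11 of the 31099 probe sets on the array, 2 of them for Ptprc. The study compared whole ovaries of female rats (Rattus norvegicus) of postnatal day 4, cultured on floating filters for 10 days. Control ovaries were left untreated, and the others received anti-Müllerian hormone (AMH) at 50 ng/mL, a TGF-beta family hormone made by granulosa cells of growing follicles. The medium of both groups held albumin, Albumax, transferrin, insulin and ascorbic acid, with penicillin and streptomycin. The series title gives the question, the action of AMH on ovarian transcripts while it inhibits the primordial to primary follicle transition. Each sample was RNA from a pool of about 10 ovaries, with 2 independent pools per group on 4 Affymetrix arrays. Rat strain is not given in the labels.

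Macrophages are resident phagocytes of the ovary, where they clear dying cells and are known for their part in follicle atresia and in the regression of the corpus luteum. CSF1R, the receptor for CSF1 and IL-34, supports their survival, while TYROBP and FCER1G are small membrane adaptors that couple activating receptors to the kinase SYK. C1q, the recognition part of the first complement component, is assembled from A, B and C chains and is made in tissues mainly by macrophages.

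Many myeloid promoters are known to be bound by PU.1 (the product of Spi1), a transcription factor of the ETS family. RefSeq promoter windows (GRCr8 build) were listed for 7 of the 10 genes, and the 250 bases before the start were searched on both strands for 2 pieces of its known recognition sequence, which share their central letters and can overlap. The first, GAGGAA, was found in 5 of the 7 windows (Cd68, C1qb, Csf1r, Cd14 and Ptprc) and in 23.3% of all 33469 windows of that length. The other piece, GGAAGT, was found in 4 of the 7 (Cd68, C1qa, C1qb and Ptprc) and in 19.2% of all. Windows are shown for the 2 genes whose levels passed the test, Cd68 (chr10:54882442-54882691, minus strand) and C1qb (chr5:154407828-154408077, minus strand), 5′ to 3′ toward the start, with each match of either motif or of its reverse complement in capitals. These matches describe the sequence; no binding was measured in the study.
Cd68: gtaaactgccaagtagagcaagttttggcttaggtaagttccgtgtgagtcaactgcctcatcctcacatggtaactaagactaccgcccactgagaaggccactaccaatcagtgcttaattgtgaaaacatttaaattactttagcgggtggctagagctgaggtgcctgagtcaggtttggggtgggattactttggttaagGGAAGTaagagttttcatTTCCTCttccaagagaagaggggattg
C1qb: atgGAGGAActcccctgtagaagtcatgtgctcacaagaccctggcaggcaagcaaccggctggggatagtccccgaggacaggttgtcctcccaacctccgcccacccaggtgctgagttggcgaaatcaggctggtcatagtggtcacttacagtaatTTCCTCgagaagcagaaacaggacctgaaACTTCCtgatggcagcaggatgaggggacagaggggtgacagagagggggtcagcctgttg

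Probe set intensities were on a linear scale. Each change is the AMH mean less the control mean of log2(intensity + 16), ± its standard error from limma (2 arrays in each group). A gene was called where its adjusted p (Benjamini-Hochberg over 18625 tested probe sets) was below 0.05. Dim probe sets were left out of the test by a filter at an intensity of about 27.8. Signal at the 3′ end of GAPDH over that at its 5′ end, a measure of how far transcripts were shortened, was 1.17 to 1.27 in control samples and 6.37 to 6.56 in AMH samples, and its part in the results was not tested. The chip identifiers of the 2 groups shared 0 run strings, so run and treatment cannot be told apart in any comparison. In whole ovaries, fewer macrophages and less RNA per macrophage cannot be told apart either.

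The 10 genes did not move as a group. Of the 9 that passed the filter, Cd68 was higher with AMH, C1qb was lower and 7 were not called, beside 11.0% of 10622 tested genes called higher and 11.9% called lower. Their median change was -0.0036, against 0.07 over all tested genes. The control and AMH arrays did not overlap for 3 of the 9 (Cd68, C1qb and C1qa), while 64.5% of all tested genes showed such separation. The counts of calls were thus close to the background, and the count of separated genes was below it.

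**Figure D1:**
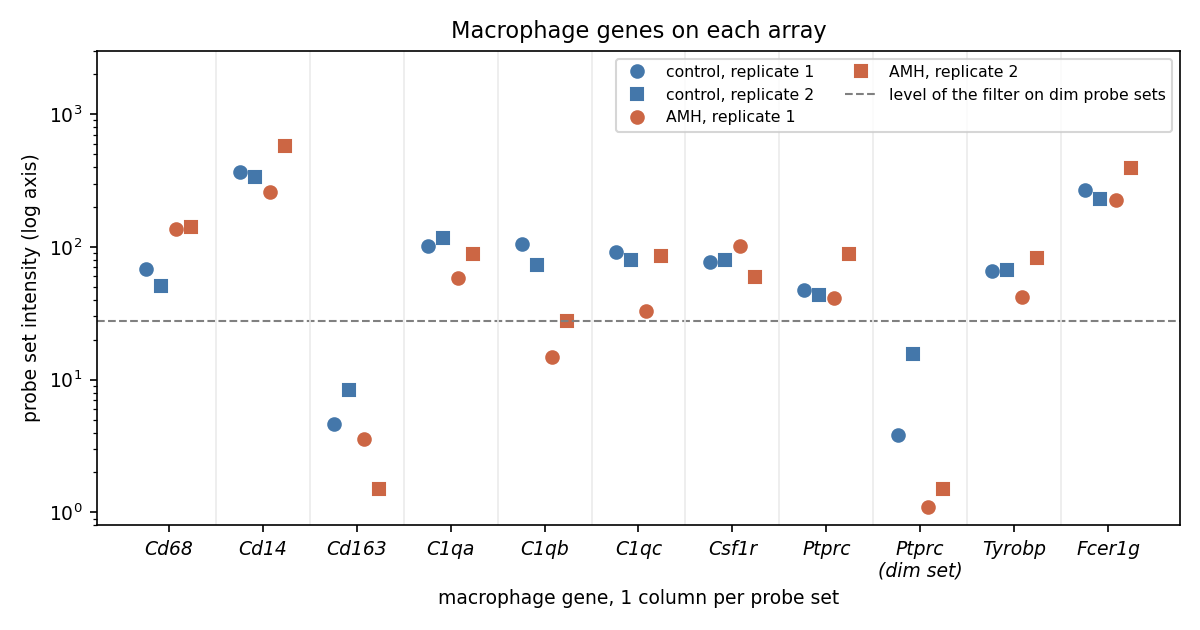
Probe set intensity (log axis) of each macrophage gene on the 4 arrays, with blue for control, orange for AMH, circles for replicate 1 and squares for replicate 2; the dashed line marks the filter level of 27.8. Both AMH arrays lie above both control arrays for Cd68 and below them for C1qa and C1qb. They also lie below them for Cd163 and the dim probe set of Ptprc, which are under the filter level on every array. For Cd14, Csf1r, Tyrobp, Fcer1g and the brighter probe set of Ptprc they lie on either side of the controls.

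Cd68 encodes a heavily glycosylated protein of the lysosome and late endosome that is used as a general marker of phagocytes. Its intensity was 68.1 and 50.8 in control and 135.2 and 141.8 with AMH. Both AMH arrays were close together and well above both controls. The mean went from 59.45 ± 12.23 to 138.5 ± 4.67 (SD, n = 2), a rise of 1.04 ± 0.21 on the log2 scale (2.06-fold, 95% confidence interval 1.47 to 2.89, adjusted p = 0.0122 by limma). The call was lost without control replicate 2 (adjusted p = 0.0893) and with scaling to the hybridization controls (0.63, adjusted p = 0.0909), and over all alternatives the adjusted p ran from 0.0103 to 0.0909.

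The C1q genes lie next to each other on rat chromosome 5 in the order C1qb, C1qc, C1qa, with no other annotated gene between them. C1qb, the B chain gene, had intensities of 105.7 and 72.9 in control and 14.7 and 27.7 with AMH. Both AMH values were below the filter level, so the size of the fall depends on the constant added: it fell by 1.51 ± 0.28 with 16 added (2.84-fold lower, adjusted p = 0.00913 by limma), by 2.06 with 1 added and by 0.84 with 64 added. Without control replicate 1 the call was lost (-1.28, adjusted p = 0.0677; 0.00204 to 0.0677 over all alternatives).

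C1qa, the A chain gene, had 101.7 and 116.4 in control and 57.9 and 88 with AMH. The groups did not overlap, but the difference of -0.51 ± 0.24 did not pass (95% confidence interval -1.05 to 0.03, adjusted p = 0.158). C1qc, the C chain gene, had 91.1 and 79.5 in control and 32.9 and 85.2 with AMH, so that only AMH replicate 1 was below the controls. Its difference was -0.52 ± 0.33 (-1.29 to 0.24, adjusted p = 0.296). All 3 chains were thus below zero in the fit and 1 of them was called. Without AMH replicate 2 both C1qa (-0.76, adjusted p = 0.0369) and C1qc (-1.05, adjusted p = 0.0134) were called lower, and without AMH replicate 1 neither was (-0.26 and 0.00094). C1qa was also called with hybridization control scaling (-0.91, adjusted p = 0.0319).

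Among the receptors, none was called. Cd14, the lipopolysaccharide co-receptor of TLR4, had 365 and 338 in control and 259.2 and 573.8 with AMH. The AMH arrays lay on opposite sides of the controls, and the difference was 0.13 ± 0.31 (95% confidence interval -0.58 to 0.85, adjusted p = 0.795). Csf1r had 76.6 and 80.1 in control and 101.9 and 59.1 with AMH. Here AMH replicate 1 was the higher array, and the difference was -0.0036 ± 0.26 (-0.60 to 0.59, adjusted p = 0.995). Ptprc, which encodes the pan-leukocyte phosphatase CD45, had 47 and 43.2 in control and 40.9 and 87.7 with AMH at its brighter probe set (0.33 ± 0.31, -0.38 to 1.04, adjusted p = 0.478). Its other probe set was near zero, at 3.8 and 15.6 in control and 1.1 and 1.5 with AMH, and was not tested. Cd163, the scavenger receptor for haptoglobin-haemoglobin complexes, was equally dim, at 4.6 and 8.3 in control and 3.6 and 1.5 with AMH. It was the only gene of the 10 without a probe set above the filter, and no change was read from it.

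Both adaptor genes had AMH values that straddled the controls. Tyrobp, which encodes DAP12, had 65.7 and 66.5 in control and 41.7 and 82.5 with AMH. The controls were almost equal, and the difference was -0.12 ± 0.29 (95% confidence interval -0.78 to 0.53, adjusted p = 0.795). Fcer1g, which encodes the shared gamma chain of Fc receptors, had 270 and 228.4 in control and 227.2 and 392 with AMH (0.25 ± 0.25, -0.32 to 0.82, adjusted p = 0.503). Without AMH replicate 1, Cd14 (0.68, adjusted p = 0.0128; up to 0.923 over leave-one-out fits) and Fcer1g (0.63, adjusted p = 0.0308; up to 0.834) were called higher.

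**Figure D2:**
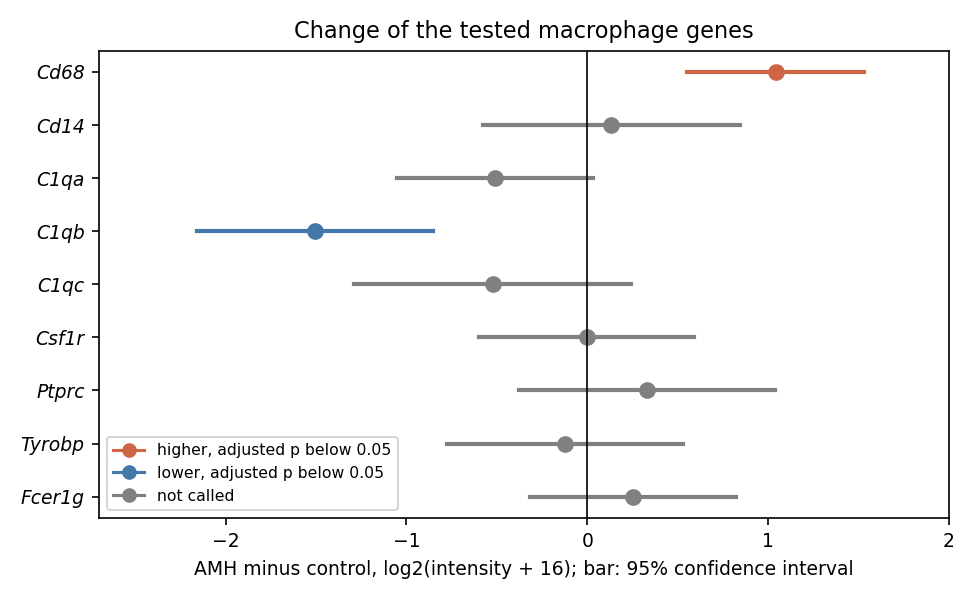
Change of the 9 tested genes, AMH less control in log2(intensity + 16), with the 95% confidence interval of the limma fit (2 arrays per group) as a bar. The intervals of Cd68 (1.04) and C1qb (-1.51) do not reach 0, and the other 7 do.

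The AMH pools differed from each other in nearly all of these genes. AMH replicate 2 was above AMH replicate 1 for 8 of the 9 tested genes, Csf1r being the exception, and the ratio of replicate 2 to replicate 1 ran from 0.58 for Csf1r to 2.59 for C1qc with a median of 1.88. The ratio of control replicate 2 to control replicate 1 ran from 0.69 to 1.14. Over all tested genes AMH replicate 2 was the higher array for 48.9%. Median differences between the AMH pools were 0.75 (log2) for the 9 genes and -0.0088 for all tested genes. For 4 genes (Cd14, Ptprc, Tyrobp and Fcer1g) AMH replicate 1 was below both controls and AMH replicate 2 above both. For Csf1r the AMH pools also enclosed both controls, in the opposite order. Cd68 was the gene on which the AMH pools were closest (ratio 1.05).

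Other genes of macrophages and monocytes were also mostly higher in AMH replicate 2. Of 33 listed, 25 had a probe set and 18 were tested, and AMH replicate 2 was above AMH replicate 1 for 17 of these 18, with a median difference of 0.78 and ratios from 0.58 (Lyve1) to 20.4 (Aif1, 3.2 and 65.4). Lyz2, the macrophage lysozyme, had 283.3 and 290.9 in control and 133 and 837 with AMH. Adgre1, which encodes the F4/80 antigen, had 197.9 and 139.2 in control and 96.2 and 204.4 with AMH, and Mrc1, the mannose receptor gene, had 141.8 and 130.6 against 82.6 and 180.1. In each of these the high array was AMH replicate 2 and the low array AMH replicate 1, whereas Lyve1 had the opposite order (154.2 in AMH replicate 1 and 90.1 in replicate 2). Of 12 tested pan-leukocyte genes, 10 were higher in AMH replicate 2, among them Lcp1, an actin bundling protein of leukocytes (148 and 349.4), and Rac2 (138.9 and 419.9). The order was not particular to macrophage genes. All 3 tested lymphocyte markers and all 3 tested granulocyte and mast cell markers had it (median differences 0.20 and 0.48). It held for 5 of 10 endothelial, 5 of 11 granulosa, 2 of 7 oocyte and 6 of 11 theca and stroma markers. Among the last, Lum had 892.6 and 2676.5 and Hsd3b1 had 1840.3 and 311.8. For the 9 macrophage genes and the 18 others the counts stayed at 8 and 17 under median centring, quantile normalization and hybridization control scaling. That of the 12 pan-leukocyte genes went from 10 to 12 under each, while the share of all tested genes was 62.3%, 49.8% and 74.0%. Whether the pools differed in cell content was not tested.

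**Figure D3:**
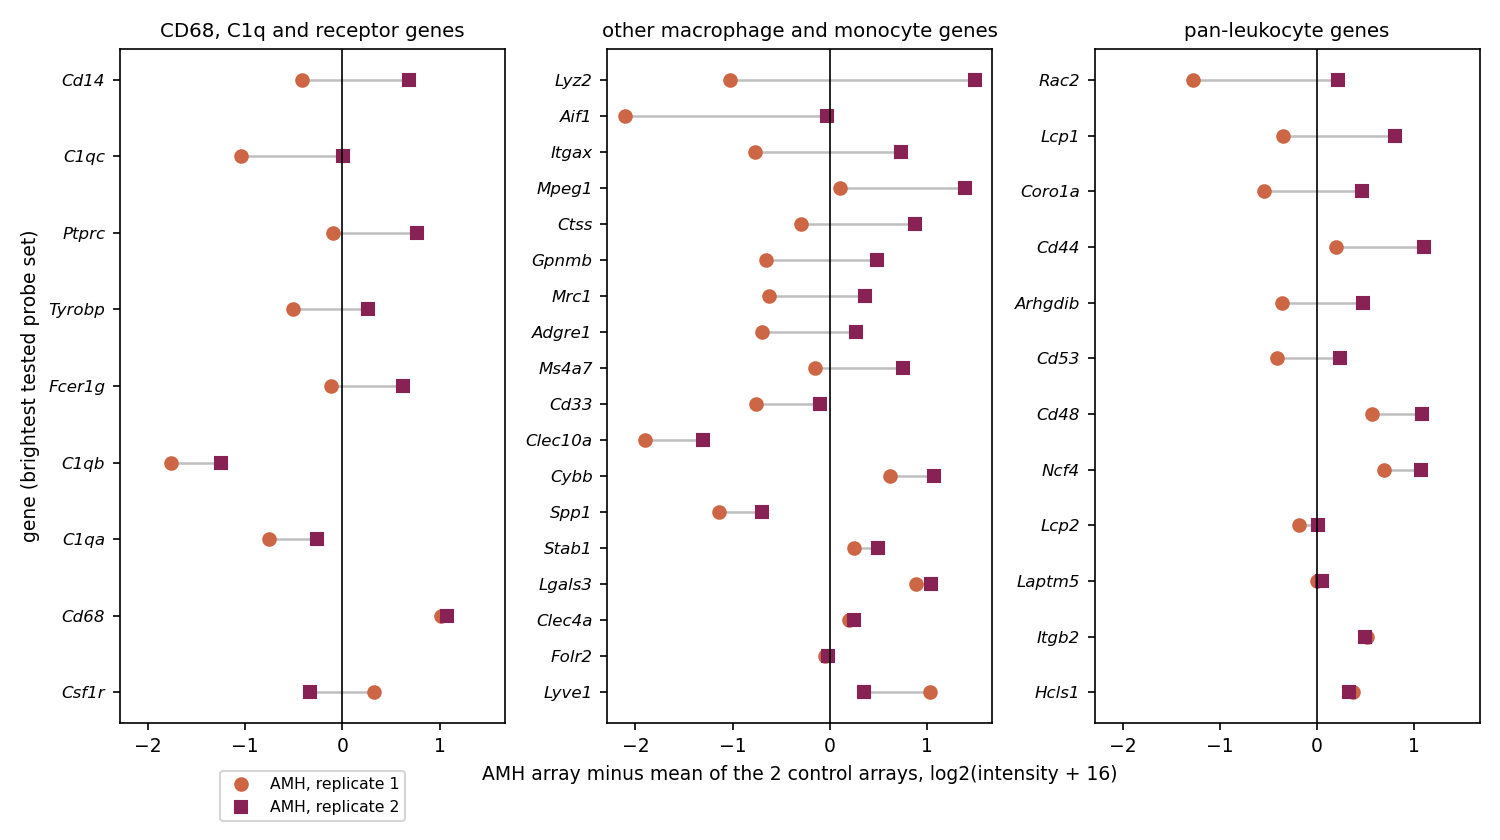
Each AMH array minus the mean of the control arrays, log2(intensity + 16), for the tested genes of 3 lists; circles are AMH replicate 1, squares AMH replicate 2, and a grey line joins them. Squares lie to the right of circles for 8 of 9, 17 of 18 and 10 of 12 genes. Both lie above 0 for the genes called higher (Cd68, Lgals3, Cybb and Cd48) and for several uncalled genes, such as Mpeg1, Stab1, Itgb2 and Ncf4.

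In the list of other macrophage and monocyte genes 2 of 18 were called higher and 2 lower, with a median change of 0.10. Lgals3, which encodes galectin-3, had 528.9 and 767.1 in control and 1188.2 and 1331.9 with AMH, and rose by 0.96 ± 0.19 (adjusted p = 0.0113 by limma). Cybb, the catalytic subunit of the phagocyte NADPH oxidase, rose from 37.6 and 36.8 to 65.7 and 95.6 (0.84 ± 0.25, adjusted p = 0.0431). Clec10a, a galactose-binding lectin of macrophages and dendritic cells, fell from 86.3 and 128.6 to 16.5 and 33.1 (-1.61 ± 0.29, adjusted p = 0.00804). Spp1, the gene of osteopontin, fell from 329.4 and 513.3 to 177.9 and 246.9 (-0.92 ± 0.24, adjusted p = 0.0311). The AMH arrays lay on the same side of the controls for these 4 genes. Gpnmb (-0.09 ± 0.33) and Lyz2 (0.23 ± 0.64) were not called, and Itgam, Ccr2 and Trem2 stayed under 15 on every array.

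Several of these calls depended on single arrays or on the processing. Without control replicate 1 those of Lgals3 (adjusted p = 0.107) and Cybb (0.171) were lost, and without control replicate 2 those of Cybb (0.163) and Spp1 (0.212). Cybb was also lost without AMH replicate 2 (0.118) and Spp1 without AMH replicate 1 (0.0543). With hybridization control scaling Lgals3 (0.172) and Cybb (0.234) were lost, as was Cybb with no filter (0.099). Spp1 was also lost with median centring (0.0652), with no filter (0.0591) and without the variance trend (0.0598). Clec10a passed in all 13 alternatives in which it was tested, and a stricter filter on dim probe sets left it out. Its AMH values (16.5 and 33.1) were below or near the filter level, so the size of its fall depends on the constant added. The change of Clec10a was -2.12 with 1 added and -0.94 with 64 added. Without AMH replicate 1 the count of the list was 5 higher and 1 lower, Lyz2 among the higher (1.49, adjusted p = 0.000308), and without AMH replicate 2 it was 2 higher and 5 lower, with Lyz2 lower (-1.02, adjusted p = 0.003). Over all alternatives the adjusted p of Lyz2 ran up to 0.884.

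Among the 12 tested pan-leukocyte genes, Cd48, a ligand of lymphocyte and natural killer cell receptors, was the 1 called (638.7 and 593.7 to 919.5 and 1315.6, 0.82 ± 0.19, adjusted p = 0.0191). That call was lost without control replicate 1 (change of 0.87) and without control replicate 2 (change of 0.77). It was also lost without the variance trend (adjusted p = 0.0503 by limma) and with hybridization control scaling (adjusted p = 0.39). Rac2 (-0.53 ± 0.41) and Lcp1 (0.22 ± 0.33) were not called. The median change of the list was 0.14.

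The genes that act with each member were also looked at. Of 9 tested genes of the C1 complex and complement, C1s, the protease that C1q activates through C1r, was called higher. It had 1945.2 and 2201.5 in control and 4806.4 and 3702.7 with AMH (1.02 ± 0.16, adjusted p = 0.00512 by limma; 0.54 and 0.0849 with hybridization control scaling, the highest over all alternatives). C1r (0.23 ± 0.25) and C3 (-0.44 ± 0.28) were not called. C1s and C1qb thus moved in opposite directions.

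Neither ligand of CSF1R was called. Csf1 had 175.1 and 177.7 in control and 240.6 and 200.1 with AMH at its brightest probe set (0.29 ± 0.18, adjusted p = 0.279), and 0 of its 3 other tested probe sets were called (limma; the lowest had -0.56 ± 0.22, an unadjusted p of 0.0367 and an adjusted p of 0.112). Il34 was dim (48.2 and 29.7 in control, 34 and 23.1 with AMH). Of 7 tested genes of this list Pik3r1, a regulatory subunit of PI3-kinase, was called lower (160 and 98.6 to 67.3 and 9.1, -1.64 ± 0.50, adjusted p = 0.0494). It was lost in 8 of 13 alternatives, among them those without control replicate 1 (0.13) and without AMH replicate 2 (-0.77, 0.0664). Stat3 (0.46 ± 0.19) and Grb2 (-0.36 ± 0.17) did not pass at the probe set brightest over all arrays. Another probe set of each was called lower by limma (Stat3 at -1.21, adjusted p = 0.00331, and Grb2 at -0.64, adjusted p = 0.0327). So was another of Cbl (-0.80, adjusted p = 0.0286). That of Grb2 was the dimmer on every array. That of Stat3 was the brighter in control (369.7 and 346.9, against 273.6 and 314.2). With AMH it was the dimmer (134.6 and 158.8, against 474.8 and 351.2). That of Cbl was close to the first in control (152.4 and 147.1, against 151.4 and 172.9) and dimmer with AMH (90.9 and 68.7, against 295.5 and 220.7).

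Of 10 tested receptors and kinases of the adaptor pathway, 0 were called by limma (2 higher and 0 lower at an unadjusted p below 0.05). Fcgr1a, the high-affinity Fc receptor that pairs with FCER1G, had 64.7 and 66.6 in control and 100.5 and 141.4 with AMH (0.73 ± 0.22, adjusted p = 0.0511), and it passed under 4 of 14 alternatives, median centring (0.0467) and the fit without AMH replicate 1 (0.0149) among them. Fcgr3a, another Fc receptor, had 119.6 and 118.4 in control and 36.4 and 116.8 with AMH (-0.69 ± 0.38) and was called lower without AMH replicate 2 (-1.37, adjusted p = 0.00244). Blnk (0.24 ± 0.20) was not called, nor was Fyn at the probe set brightest over all 4 arrays (0.51 ± 0.17). Another Fyn probe set was called lower (-1.96, adjusted p = 0.000701 by limma). It was the brighter in control (257.5 and 234.8, against 211.9 and 202.3) and the dimmer with AMH (49.2 and 53.6, against 317.6 and 287.3).

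Of 13 tested genes of the CD14 and TLR4 pathway, Irak1, a kinase downstream of TLR4, was called higher (380.2 and 386.8 to 744.8 and 556.9, 0.72 ± 0.18, adjusted p = 0.0245). Nfkbia, the inhibitor of NF-kappaB, was called lower (774.3 and 1019.2 to 141.3 and 137.3, -2.54 ± 0.18, adjusted p = 0.000268). The Irak1 call was lost without control replicate 1 (change of 0.71) and without control replicate 2 (change of 0.74). It was also lost without the variance trend (adjusted p = 0.0565 by limma) and with hybridization control scaling (adjusted p = 0.41). That of Nfkbia was lost in 0 of 14 alternatives. Nfkb1 (0.09 ± 0.20) and Tnfaip3 (0.06 ± 0.18) were not called.

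Among 9 tested genes of haem scavenging and scavenger receptors, Colec12, a scavenger receptor with a collectin domain, was called higher (462 and 524.5 to 1012.4 and 1044.6, 1.04 ± 0.15, adjusted p = 0.00319; 0.0849 with hybridization control scaling, the highest over all alternatives). Lrp1 (-0.05 ± 0.19) and Slc40a1 (0.14 ± 0.23) were not called. Scarb1, the HDL receptor gene, was not called at the probe set brightest over all 4 arrays (-0.44 ± 0.24). Another Scarb1 probe set was called lower (-1.43, adjusted p = 0.0039 by limma). In control the first had 125.5 and 144.5 and the other 131.7 and 118.8. With AMH the first had 120.2 and 74.3 and the other 39.4 and 33.8. With hybridization control scaling 3 genes of this list were called lower and 0 higher.

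**Figure D4:**
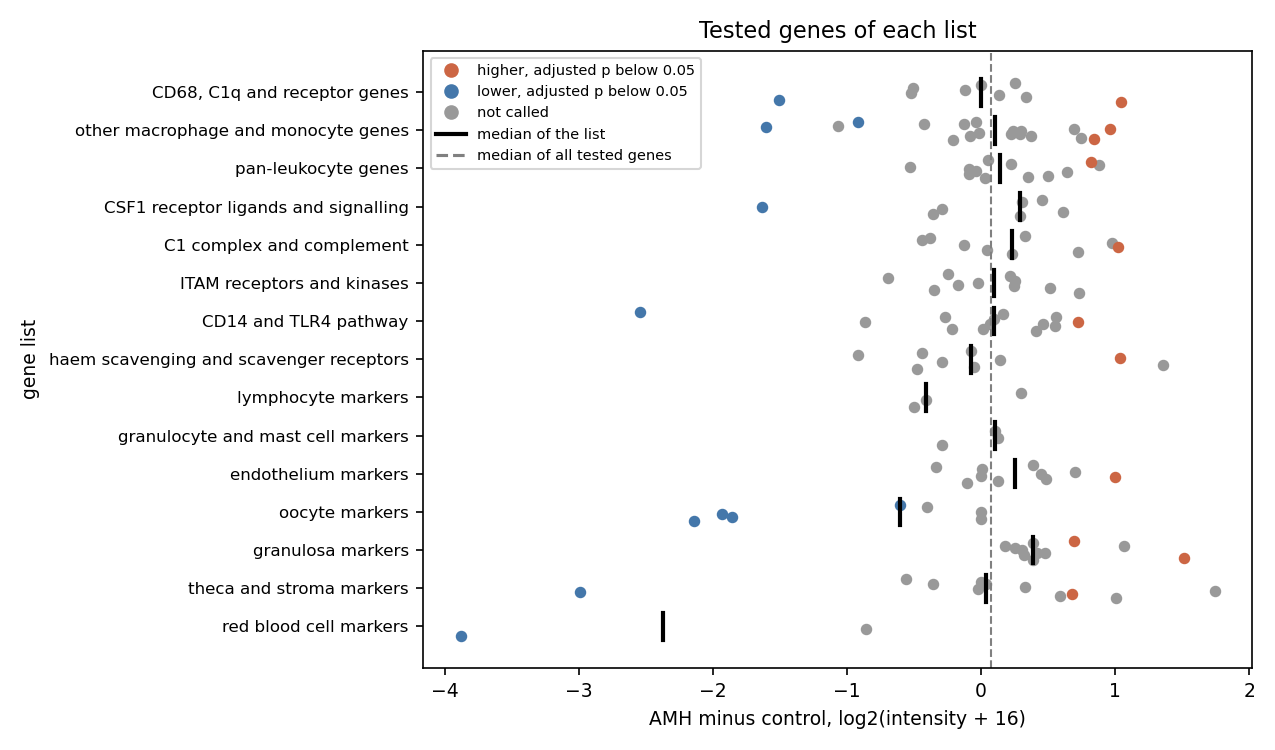
Change of every tested gene of each list, AMH less control in log2(intensity + 16), with calls in orange (higher) and blue (lower), a black bar at each list's median and a dashed line at the median of all tested genes (0.07). The medians of the macrophage genes (-0.0036), the other macrophage genes (0.10) and the pan-leukocyte genes (0.14) lie near that line, and those of oocyte (-0.61) and red blood cell markers (-2.37) lie to its left.

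Markers of other cells were read on the same arrays. Each sum of intensity takes every listed gene with a probe set, tested or not, so 11 endothelial and 12 theca and stroma genes. Of 15 lymphocyte markers with a probe set 3 were tested and 0 called (limma; 0 at an unadjusted p below 0.05), 2 were called lower with hybridization control scaling, and their summed intensity was 378.9 to 431.1 in control and 377.8 to 384.7 with AMH. Cd79b, a B cell receptor subunit, was under 7 on every array. Of 16 granulocyte and mast cell markers 3 were tested and 0 called (limma; 0 unadjusted), with sums of 400.1 to 407.7 and 321.5 to 371.7, and S100a8, abundant in neutrophils, was under 14. The sums of the 10 macrophage genes were 1195.5 and 1084.1 in control and 915.2 and 1539.3 with AMH. Cd14 and Fcer1g, both uncalled, were the brightest of them on every array and weigh most in these sums. They had 365 and 270 in control replicate 1, and 573.8 and 392 in AMH replicate 2.

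Among 10 tested endothelial markers Ptprb was called higher (1.00 ± 0.27, adjusted p = 0.0321; 0.00556 to 0.15 over all alternatives), and the sums were 1332.7 to 1371 and 1569.6 to 1698. The Ptprb call was lost without control replicate 1 (change of 0.96), without control replicate 2 (1.04) and without AMH replicate 2 (0.68). It was also lost with no filter (adjusted p = 0.0759 by limma) and with hybridization control scaling (adjusted p = 0.15). Of 11 tested granulosa markers 2 were called higher, of 11 theca and stroma markers 1 higher and 1 lower, and of 7 oocyte markers 4 lower. With 1 array left out these counts ran from 1 to 4 for granulosa, from 0 to 3 higher and 1 to 4 lower for theca and stroma, and from 3 to 4 for oocytes. Among the calls Amhr2 was lost in 9 and Ooep in 7 of 14 alternatives. Dimmer probe sets of Wt1 (-1.10, adjusted p = 0.0114) and Nr2f2 (-1.10, adjusted p = 0.0101) were called lower. The sums were 6579.2 to 6994.8 and 8939.3 to 12007.2 for granulosa, 17903.8 to 18571.9 and 15856.7 to 18066 for theca and stroma, and 9743 to 10375.1 and 7355.7 to 7740.3 for oocytes. Of 2 tested red blood cell markers Hbb, haemoglobin beta, was called lower (1362 and 1166.8 to 89.4 and 55.3, -3.88, adjusted p = 0.000219), and Alas2 was not (-0.86, adjusted p = 0.0839). The sum of the 5 listed markers with a probe set, most of it Hbb, was 1245.5 to 1444.4 in control and 99.4 to 121.1 with AMH. Their part in the changes of Cd68 and C1qb was not tested.

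The array profile of the 9 tested genes, each centred and then averaged, was 0.11 and -0.01 in control and -0.33 and 0.22 with AMH (log2). The closest genes by root mean square difference over the 4 arrays were Cdadc1 (0.0219), Gm2a (0.0267), Uqcr10 (0.0269), Sdr16c5 (0.0293) and Asic4 (0.0294), and 1423 of 10542 genes lay within 0.2 of it. A profile over 4 arrays is shared by many genes.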

How the data were processed

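The authors deposited 1 table of linear probe set intensities (31099 probe sets, 4 Affymetrix arrays; biotin-labelled total RNA, per the labels). No summarising software is named in the sources used here. A trimmed mean of 125.03 was common to every array, so the deposited values were scaled to 1 target. For arrays, the number of samples limits the precision.

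Groups and replicate numbers came from the titles. Intensities were transformed as log2(intensity + 16), which shrinks changes at low signal. After removal of 57 control probe sets and of the dimmest 40 percent of the remainder, 18625 were tested with limma 3.58.1 in R 4.3.3 (eBayes with trend; 2 residual and 6.33 prior degrees of freedom), adjusted by the Benjamini-Hochberg method at 0.05. The script was tested on simulated data. A two-sided exact permutation test of 2 against 2 arrays cannot go below 0.333, so the adjusted p-values rest on the model.

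Symbols came from the platform annotation (20832 probe sets with 1 symbol, 436 with several, 9831 with none listed), and the 11 macrophage probe sets matched RefSeq by gene identifier. A gene stood at its brightest tested probe set. Members and lists were chosen with earlier results of these data known. By rule, up to 3 called genes in each direction and the 2 brightest uncalled ones were named per list. Adgre1, Mrc1, Lyve1, Itgam, Ccr2, Trem2, Csf1, Il34, Fcgr1a, Fcgr3a, Cd79b, S100a8, Aif1, Alas2, Scarb1 and the other probe sets of list genes were named after their values were seen. So were Lum, Hsd3b1, Ooep, Mpeg1, Stab1, Itgb2 and Ncf4. The marker lists of other cell types are given mostly as counts. The promoter search and the pool differences under other scalings were also added after the data were seen. Alternatives changed the constant, filter, scaling (9 hybridization control probe sets for one), variance model, probe set rule, replicate block and arrays used.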

Additional observations from a re-analysis of the deposited data

How the results depend on the processing

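Cd68 kept its call in 12 of 14 alternatives and C1qb in 12 of 13. The count of macrophage genes called higher (1) was 0 with hybridization control scaling and 0 to 3 when 1 array was left out. The count called lower (1) was 2 with hybridization control scaling, 0 with the lowest 60 percent of probe sets left out, where C1qb was not tested, and 0 to 3 when 1 array was left out. Fits without a control array take their residual spread from the AMH arrays alone, and those without an AMH array from the controls alone.

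Values of uncalled genes that changed sign were those of Cd14 (-0.33), Fcer1g (-0.20) and Ptprc (-0.0278) with hybridization control scaling, and of Csf1r with 64 added (0.0057), median centring (0.0931) and quantile normalization (0.11). The cause was not tested. With 1 array left out Cd14 ran from -0.42 to 0.68, Fcer1g from -0.12 to 0.63, Ptprc from -0.10 to 0.76, Tyrobp from -0.51 to 0.26, Csf1r from -0.33 to 0.32 and C1qc from -1.05 to 0.00094.

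With 1 array left out, the higher and lower counts ran from 0 to 4 and 0 to 1 for pan-leukocyte genes, 1 to 3 and 0 to 1 for complement, 0 to 2 and 0 to 1 for CSF1 signalling, 0 to 2 and 0 to 2 for adaptor receptors and kinases, and 0 to 2 and 1 to 2 for the TLR4 pathway. Hybridization control scaling moved the median change of all tested genes to -0.35, median centring to 0.17 and quantile normalization to 0.11, from 0.07. The calls over all genes split into 1173 higher and 1259 lower as deposited, 1423 and 950 with median centring, and 93 and 2590 with hybridization control scaling. Same-numbered arrays did not deviate together (correlation -0.00082 across probe sets). With 1 difference per group this cannot decide whether same-numbered pools were prepared together. With the replicate block 1 macrophage gene was called higher and 1 lower, Cd68 at an adjusted p of 0.0173 and C1qb at 0.0134, and of the other macrophage genes Cybb lost its call (0.0517).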
